A study of Mus musculus with 4 samples.

Results

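Proteasome genes were examined in the transcriptome of the outer tissues surrounding the femoral artery (FA), mainly perivascular adipose tissue (PVAT), after wire injury or sham operation. All gene symbols that begin with Psma, Psmb, Psmc, Psmd, Psme, Psmf or Psmg followed by a digit were taken, which gave 48 of the 12661 genes analysed. Of these, 5 encode the immunoproteasome (*Psmb8*, *Psmb9*, *Psmb10*, *Psme1*, *Psme2*) and 41 encode other subunits, assembly factors and regulators, called constitutive here. The remaining 2 share only the name or stand as a copy. *Psmc3ip* encodes a recombination factor and no proteasome subunit, and *Psme2b*, which RefSeq also lists as Psme2-like, may have shared reads with *Psme2*. *Psma8* and *Psmb11* were not analysed here. Both groups were wild type C57BL/6 females, ovariectomized and 11 weeks old by the labels. Tissue was taken 48 h after the operation, with 2 libraries per group made from 480 ng of total RNA each. The injury was made with a spring wire 0.38 mm in diameter, and the controls had a sham operation. Whether each library came from 1 mouse is not given in the sources used here, so the spread between libraries may be partly technical. The tissue holds adipocytes, vessel-associated cells and infiltrating leukocytes together, so fewer cells of a type and less RNA per cell cannot be told apart. The 12 adipocyte markers examined were all among the genes analysed, but the values do not give their abundance.

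The proteasome degrades proteins that carry ubiquitin chains. Its 20S core is a stack of alpha and beta rings, and the beta subunits encoded by *Psmb5*, *Psmb6* and *Psmb7* cut the substrate. The 19S cap recognizes ubiquitin, unfolds the substrate with a ring of ATPases and feeds it into the core. In leukocytes and in cells exposed to interferon, the products of *Psmb8*, *Psmb9* and *Psmb10* replace the constitutive catalytic subunits. The PA28 alpha and beta proteins, encoded by *Psme1* and *Psme2*, form a cap on the core that is induced in the same setting. The resulting immunoproteasome is known for making peptides for MHC class I, and brown adipocytes are known to adjust proteasome activity through the transcription factor NRF1, the product of *Nfe2l1*.

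The values are those deposited by the authors. They are signed numbers that behave like logarithms, but their base is not given in the sources used here, so no fold change is stated. What a value of 0 stands for is not given either. *Ucp1* was above 0 and *Psmg4* below 0 in all 4 libraries, so 0 is not the middle of a gene's values here. Levels of different genes cannot be compared. Over all genes they ran from -2.27 to 6.45. Read depth is unknown for every library, and each group has 2 libraries. The standard errors, intervals and p-values come from limma, which draws the variance of each gene towards a prior taken from all genes. The prior had 3.48 degrees of freedom, against 2 left for each gene by its own libraries. These errors are therefore not the spread between libraries alone. Injury was compared with sham by limma over all 12661 genes with Benjamini-Hochberg adjustment, and a gene was called at an adjusted p-value under 0.05. For any gene taken alone, the smallest p that exact permutation of 2 against 2 libraries allows is 0.333.

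Proteasome genes had slightly higher values after injury, and none was called. Of the 48 genes, 41 had a higher mean in the injury libraries, against 50.9% of all genes analysed, and the median difference was 0.13 deposited units, against 0.0085 over all genes. No member passed the threshold (limma, Benjamini-Hochberg adjustment), where 7.43% of all genes did, 3.76% with higher and 3.67% with lower values after injury. None passed at 0.1 either, where 18.3% of all genes did. Before adjustment 3 members had a p-value under 0.05, *Psme3*, *Psmg3* and *Psmd8*. All 3 were higher after injury, or 6.25% of the members, against 29.5% of all genes in either direction and 14.8% with higher values. This count was 0 without either sham library, 1 without injury replicate 1 and 6 without injury replicate 2. In 26 members (54.2%) both injury libraries lay above both sham libraries, as they did in 31.6% of all genes. In 2 members, *Psmd5* and *Psmd6*, both lay below, against 30.3% of all genes, so that 61.9% of all genes did not overlap in one direction or the other. The differences were small on the scale of these data. They ran from -0.22 for *Psmd5* to 0.45 for *Psmb9*, and the standard errors had a median of 0.14.

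**Figure D1:**
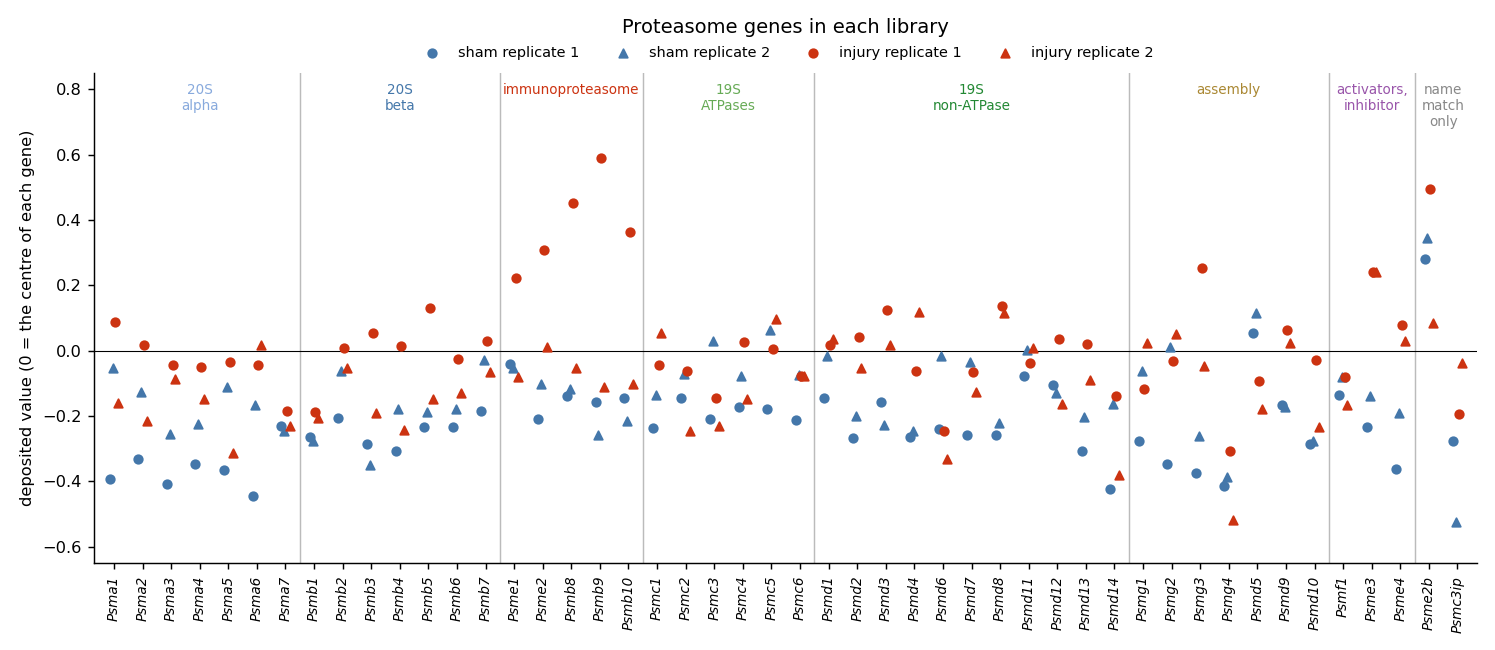
Deposited value (vertical axis) of the 48 proteasome genes in each of the 4 libraries, ordered by role. The axis label calls 0 the centre of each gene, but what 0 stands for is not given in the sources used here. Blue marks are sham and red marks injury libraries, with circles for replicate 1 and triangles for replicate 2. The 5 immunoproteasome genes are highest in injury replicate 1, at 0.22 to 0.59, while injury replicate 2 lies near the sham libraries.

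The libraries within a group differed by about as much as the groups. Injury replicate 1 was above injury replicate 2 in 38 of the 48 genes, against 48.9% of all genes. Sham replicate 2 was above sham replicate 1 in 38 of the 48 genes as well, against 48.4% of all genes. The median value of the 41 constitutive genes was -0.26 in sham replicate 1 and -0.14 in sham replicate 2. It was -0.029 in injury replicate 1 and -0.13 in injury replicate 2. Injury replicate 2 therefore lay just above sham replicate 2, and the distance between the sham libraries was larger than the distance between these libraries of different groups. The median difference of the 48 genes was 0.072 without sham replicate 1, 0.20 without sham replicate 2, 0.077 without injury replicate 1 and 0.20 without injury replicate 2. The number of members with a higher mean was 34 without sham replicate 1, 45 without sham replicate 2, 36 without injury replicate 1 and 44 without injury replicate 2. Markers of other cells differed between the same libraries. The 8 skeletal muscle markers had a mean of 0.60 in sham replicate 1, against -0.15 in sham replicate 2 and -0.17 and -0.28 in the injury libraries, with none called. The 11 brown adipocyte markers had means of 0.55 and 1.05 after sham operation and 2.10 and 1.88 after injury. Of them 7 were called higher, against 3.76% of all genes. The 10 endothelial markers had means of 0.57 and 0.65 after sham operation and -0.24 and -0.14 after injury. Here 2 were called lower, against 3.67% of all genes. The 12 adipocyte markers had means of 0.19 and 0.34 after sham operation, -0.13 in injury replicate 1 and 0.26 in injury replicate 2. In this list 1 was called lower, against the same 3.67%. The adipocyte list was thus lowest in the library in which the immunoproteasome genes were highest. The part of these lists in the proteasome values was not tested.

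**Figure D2:**
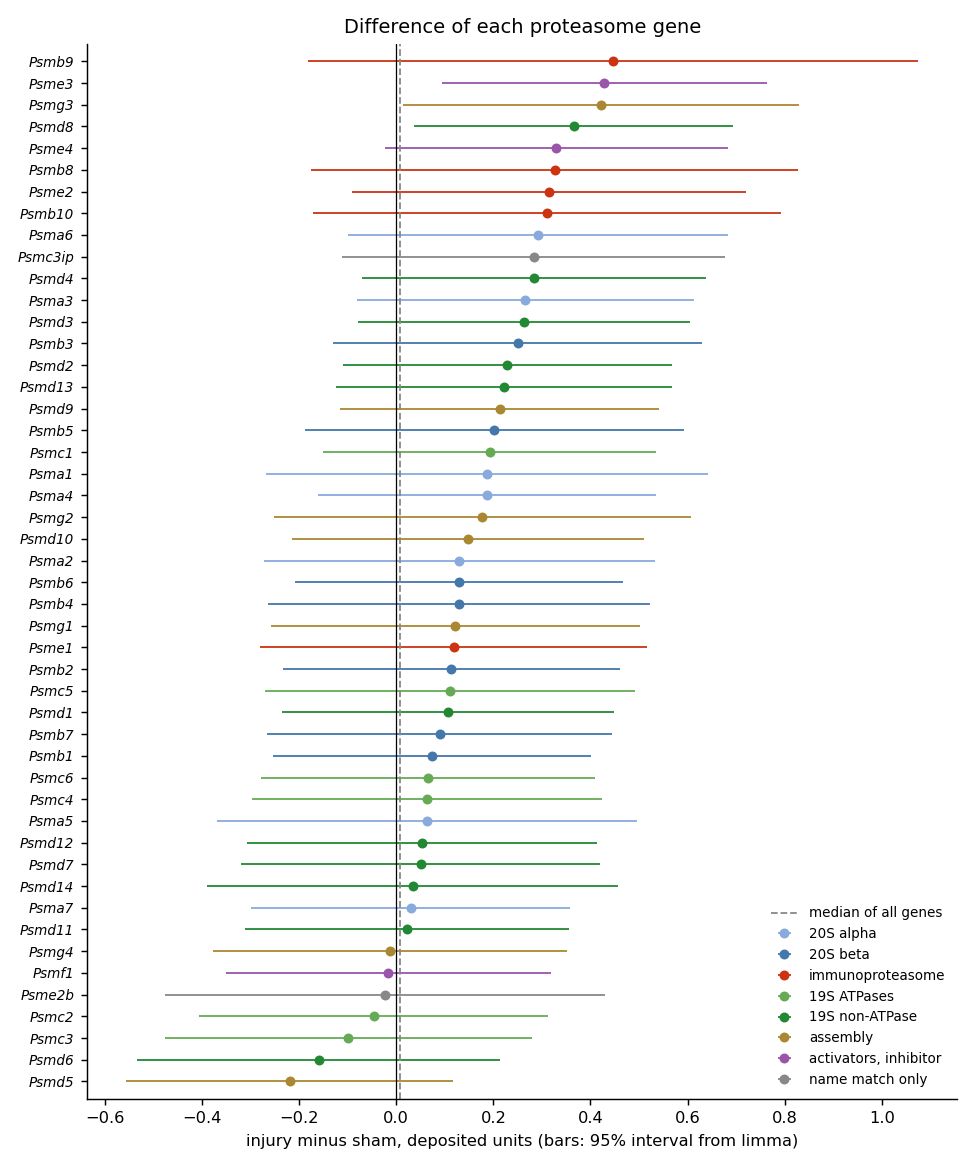
Injury minus sham (horizontal axis, deposited units) for the 48 proteasome genes, ordered by size and coloured by role. Points are limma estimates and bars their 95% intervals; 3 intervals, of *Psme3*, *Psmg3* and *Psmd8*, lie wholly above 0, with no adjustment for the number of genes. The dashed line is the median of all genes, 0.0085.

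The 20S core was higher in mean after injury in all 14 of its constitutive genes, none of them called. The 7 alpha ring genes, whose products form the gate of the core, had a median difference of 0.19, from 0.030 for *Psma7* to 0.29 for *Psma6*. *Psma6* was at -0.44 and -0.17 after sham operation and at -0.045 and 0.017 after injury. Its groups did not overlap, but the sham libraries lay further apart than the injury libraries lay from sham replicate 2. The difference had a 95% interval of -0.10 to 0.68 (limma adjusted p = 0.278), and leaving out either sham library gave 0.15 or 0.43. The 7 constitutive beta ring genes had a median difference of 0.13, from 0.073 for *Psmb1* to 0.25 for *Psmb3*. *Psmb3*, a structural beta subunit, was at -0.29 and -0.35 after sham operation and at 0.055 and -0.19 after injury. In 9 of the 14 genes (64.3%) the injury libraries lay above the sham libraries without overlap, against 31.6% of all genes.

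The immunoproteasome genes had their highest values in injury replicate 1, and in injury replicate 2 they were near the sham libraries. All 5 had a higher mean after injury, with a median difference of 0.31, and none was called. *Psmb9*, the gene of the inducible beta 1i subunit, was at -0.16 and -0.26 after sham operation and at 0.59 and -0.11 after injury. Injury replicate 1 stood far above the other 3 libraries, while injury replicate 2 was only just above the higher sham library. Its mean was -0.21 ± 0.072 (SD, n = 2) after sham operation and 0.24 ± 0.50 (SD, n = 2) after injury. The difference was 0.45 with a standard error of 0.25 and a 95% interval from -0.18 to 1.07 (limma adjusted p = 0.298), so it was not called. *Psmb8*, the gene of beta 5i, was at -0.14 and -0.12 after sham operation and at 0.45 and -0.052 after injury. Injury replicate 1 again stood above the rest, and its difference was 0.33 with a standard error of 0.20 (limma adjusted p = 0.337). *Psmb10*, the gene of beta 2i, was at -0.15 and -0.22 after sham operation and at 0.36 and -0.10 after injury, a difference of 0.31 with a standard error of 0.19 (limma adjusted p = 0.339). *Psme2*, the gene of PA28 beta, was at -0.21 and -0.10 after sham operation and at 0.31 and 0.0099 after injury. Its difference was 0.31 with a standard error of 0.16 (limma adjusted p = 0.262). *Psme1*, the gene of PA28 alpha, was at -0.040 and -0.053 after sham operation and at 0.22 and -0.079 after injury. Here the groups overlapped, since injury replicate 2 was below both sham libraries, and the difference was 0.12 (limma adjusted p = 0.663).

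The size of these differences depended on injury replicate 1. In 4 of the 5 genes the 2 injury libraries were further apart than the means of the groups. Without injury replicate 1 the median difference of the 5 genes was 0.080, that of *Psmb9* was 0.096 and that of *Psme1* was -0.032. That of *Psme2* was 0.17. In all of the 5 genes but *Psme1* (80%), both injury libraries lay above both sham libraries, against 31.6% of all genes. Without injury replicate 2 the median difference was 0.54, and *Psmb9* was the only member called (difference 0.80, limma adjusted p = 0.0398). Such a fit takes the lone injury library to vary like the sham libraries. *Psmc3ip*, the other gene outside both sets, was at -0.28 and -0.52 after sham operation and at -0.19 and -0.039 after injury, a difference of 0.28 (limma adjusted p = 0.294). *Psme2b* was at 0.28 and 0.34 after sham operation and at 0.49 and 0.085 after injury, a difference of -0.023. Its injury libraries had the same order as those of the 5 genes, but so had those of 32 of the 41 constitutive genes.

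In mm9 with the GENCODE annotation, the immunoproteasome genes lie at 3 places. *Psmb9* (chromosome 17 from 34318932 to 34324697, minus strand) and *Psmb8* (chromosome 17 from 34334666 to 34338399, plus strand) flank *Tap1*, a gene of the MHC class II region whose product carries peptides into the endoplasmic reticulum. *Tap1* runs on the plus strand from 34324498 to 34334170. The symbol *Psmb9* stands for 2 gene models, and the second runs from 34318933 to 34324709. The model of *Psmb9* given first and that of *Tap1* share 200 bases at their starts on opposite strands, and *Psmb8* starts 495 bases after the end of *Tap1*. *Psme1* (chromosome 14 from 56196960 to 56200366, plus strand) and *Psme2* (chromosome 14 from 56206278 to 56209950, minus strand) are 5911 bases apart. *Psmb10* lies on chromosome 8 from 108459628 to 108462292 on the minus strand. Of the constitutive partners, *Psmb5* lies on chromosome 14 from 55232644 to 55236851, *Psmb6* on chromosome 11 from 70338869 to 70341360 and *Psmb7* on chromosome 2 from 38443556 to 38499607. The library kit keeps strand, but whether the counting used it, and with which annotation, is not given in the sources used here. Reads at the start shared by these GENCODE models of *Psmb9* and *Tap1* therefore cannot be assigned with certainty. *Tap1*, like *Psmb9*, was highest in injury replicate 1. It was at -0.50 and -0.20 after sham operation and at 0.61 and -0.020 after injury, a difference of 0.65 with a standard error of 0.25 (limma adjusted p = 0.159).

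Inducible and constitutive catalytic subunits were next compared as pairs within each library, because a subunit of one kind takes the place of its partner in the core. What the values of each gene are centred on is not given, so only the change of a pair between libraries can be read. *Psmb8* minus *Psmb5* was 0.096 and 0.072 after sham operation and 0.32 and 0.096 after injury. *Psmb9* minus *Psmb6* was 0.077 and -0.079 after sham operation and 0.62 and 0.017 after injury. *Psmb10* minus *Psmb7* was 0.038 and -0.19 after sham operation and 0.33 and -0.036 after injury. In all 3 pairs injury replicate 1 was the highest library. Injury replicate 2 lay between the sham libraries for the pairs of *Psmb9* and *Psmb10*, and only just above the higher sham library for the pair of *Psmb8*. The constitutive partners had smaller differences with all libraries. Without injury replicate 1, however, *Psmb5*, *Psmb6* and *Psmb7* had differences of 0.062, 0.079 and 0.042, against 0.075, 0.096 and 0.080 for *Psmb8*, *Psmb9* and *Psmb10*. *Psmb5* was at -0.23 and -0.19 after sham operation and at 0.13 and -0.15 after injury, a difference of 0.20 with a standard error of 0.16 (limma adjusted p = 0.440). *Psmb6* was at -0.23 and -0.18 against -0.027 and -0.13, and *Psmb7*, whose groups overlapped, at -0.18 and -0.029 against 0.030 and -0.065. Over the whole sets, the median of the 5 immunoproteasome genes minus that of the 41 constitutive genes was 0.11 and 0.024 in the sham libraries and 0.39 and 0.048 in the injury libraries. The mean of this gap was 0.068 ± 0.063 (SD, n = 2) after sham operation and 0.22 ± 0.24 (SD, n = 2) after injury. The change of this gap was 0.15, and -0.020 without injury replicate 1. The groups overlapped, so these libraries do not separate the immunoproteasome from the constitutive genes in their response to injury.

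**Figure D3:**
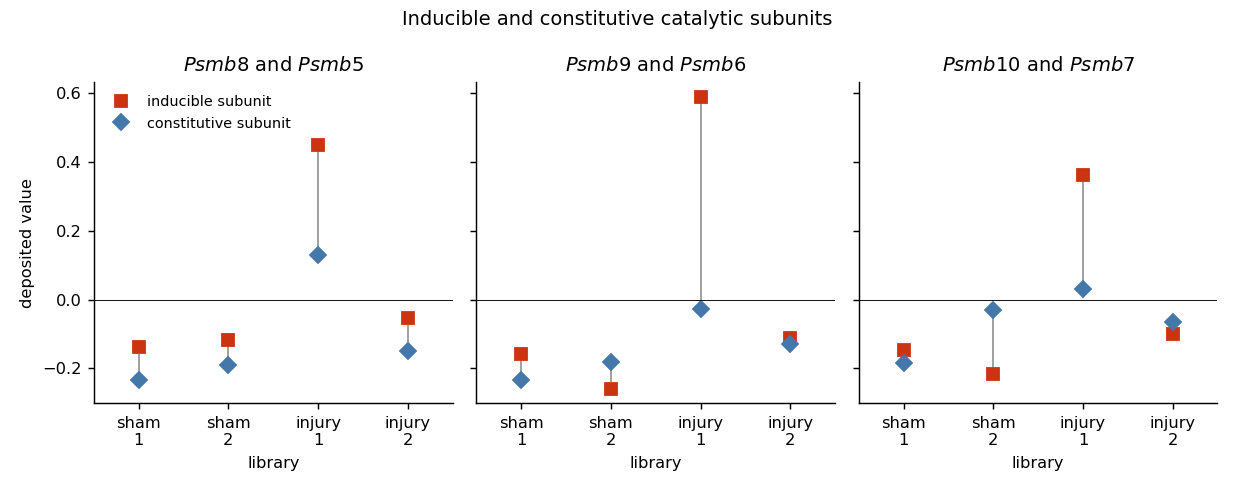
Deposited value (vertical axis) of each inducible catalytic subunit (red squares) and of the constitutive subunit it replaces (blue diamonds) in the 4 libraries (horizontal axis), joined by a grey line. The line is longest in injury replicate 1, at 0.32, 0.62 and 0.33 for the pairs of *Psmb8*, *Psmb9* and *Psmb10*.

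The promoters of 5 of the 6 genes of the catalytic pairs are shown, since the inducible and constitutive genes are compared above. That of *Psmb7* is named only. RefSeq promoter sequences (GRCm38.p6) matched 41 of the 48 genes. The 250 bases before the start are printed 5′ to 3′ on the strand of the gene. Capitals mark matches on either strand to GAAA and GAAA with any 2 bases between them (as in an interferon-stimulated response element), TTCNNNGAA (as in a gamma-activated site), TGACNNNGC (the core bound by NRF1 and NRF2), CCAAT, or GGGA and TTTCC with any 1 base between them (NF-kB), and no printed match overlaps another.

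Psmb8, chr17:34197945-34198194, plus strand: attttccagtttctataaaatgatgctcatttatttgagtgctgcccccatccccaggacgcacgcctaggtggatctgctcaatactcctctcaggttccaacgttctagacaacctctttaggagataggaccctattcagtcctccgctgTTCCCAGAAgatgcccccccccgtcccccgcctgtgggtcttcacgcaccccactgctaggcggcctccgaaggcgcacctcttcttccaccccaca
Psmb5, chr14:54617996-54618245, minus strand: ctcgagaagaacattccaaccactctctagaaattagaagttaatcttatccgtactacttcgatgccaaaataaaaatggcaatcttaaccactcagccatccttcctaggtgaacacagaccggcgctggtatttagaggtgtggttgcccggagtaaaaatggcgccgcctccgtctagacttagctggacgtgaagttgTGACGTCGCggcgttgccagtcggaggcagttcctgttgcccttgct
Psmb9, chr17:34187331-34187580, minus strand: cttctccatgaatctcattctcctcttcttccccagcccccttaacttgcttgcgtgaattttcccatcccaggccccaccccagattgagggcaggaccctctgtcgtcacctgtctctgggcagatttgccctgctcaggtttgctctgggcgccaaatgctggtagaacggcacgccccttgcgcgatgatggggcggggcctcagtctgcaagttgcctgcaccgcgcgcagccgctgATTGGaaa
Psmb6, chr11:70525107-70525356, plus strand: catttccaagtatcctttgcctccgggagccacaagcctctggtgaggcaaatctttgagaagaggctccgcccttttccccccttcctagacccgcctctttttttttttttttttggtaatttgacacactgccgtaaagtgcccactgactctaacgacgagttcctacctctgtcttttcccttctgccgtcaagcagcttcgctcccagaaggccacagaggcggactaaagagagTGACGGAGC
Psmb10, chr8:105938393-105938642, minus strand: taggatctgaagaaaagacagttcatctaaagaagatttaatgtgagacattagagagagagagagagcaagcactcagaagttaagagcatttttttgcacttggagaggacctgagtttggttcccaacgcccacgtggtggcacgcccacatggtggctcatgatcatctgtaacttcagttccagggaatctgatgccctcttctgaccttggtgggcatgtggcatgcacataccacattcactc

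The *Psmb8* window held TTCCCAGAA, a match to the gamma-activated motif, from 97 to 89 bases before the start. Such a match was present in 7.02% of all 32851 promoter windows and, among the members, in *Psmg1* besides *Psmb8*. The windows of *Psmb5* and *Psmb6* held TGACGTCGC and TGACGGAGC, matches to the NRF1 and NRF2 core, 47 and 9 bases before the start. This core was found in 5 of the 34 constitutive genes matched (14.7%), in none of the 5 immunoproteasome genes, and in 10.2% of all windows. The interferon-type motif was found in *Psmb3*, *Psmd4* and *Psmd9* and in 2.98% of all windows, the CCAAT motif in 14 members and 33.8% of all windows, and the NF-kB motif in no member and 0.356% of all windows. In RefSeq the starts of *Psmb9* and *Tap1* are 226 bases apart on opposite strands, so the printed *Psmb9* window reaches past the start of *Tap1*. In the GENCODE models given above these genes share 200 bases instead, so the annotations place their starts differently. A printed window may thus lie inside a GENCODE model. The CCAAT match of the *Psmb9* window lies 8 bases before the RefSeq start. The *Psmb10* window held no match. A match describes letters only, and nothing in these data measured binding.

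Lists of immune genes were compared across the same libraries. The 12 leukocyte markers analysed were all higher after injury without overlap, against 31.6% of all genes, and 9 of them were called, against 3.76% of all genes called higher. They had a median difference of 1.66 against 0.0085 over all genes. The mean of this list was -1.21 in both sham libraries, 0.80 in injury replicate 1 and 0.10 in injury replicate 2. Both injury libraries thus held leukocyte RNA well above the sham libraries. Against the same 3.76%, 6 of the 10 macrophage markers were called higher. The 7 neutrophil markers had a median difference of 1.86 with 2 called higher, and the 5 lymphocyte markers 0.59 with 1 called higher, against the same 3.76%. The 21 interferon response genes followed another order. Their median was -0.31 and 0.041 in the sham libraries, 0.82 in injury replicate 1 and -0.096 in injury replicate 2. Of the 21, 17 had a higher mean after injury, and the median difference was 0.54. In 7 of them (33.3%), *Irf1* included, both injury libraries lay above both sham libraries, against 31.6% of all genes. Injury replicate 1 exceeded injury replicate 2 in all 21, in 16 of them by more than the group means differed, and none was called, with 5 at an unadjusted p-value under 0.05, where 29.5% of all genes were. *Irf1*, a transcription factor known to act on immunoproteasome genes, was at 0.066 and -0.040 against 0.39 and 0.11, and its difference was 0.24 (limma adjusted p = 0.377). The immunoproteasome genes were thus at their highest in the library in which the interferon and leukocyte lists were highest. They were near sham values in the injury library whose leukocyte list lay above both sham libraries and whose interferon median did not. The part of either list in these values was not tested.

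**Figure D4:**
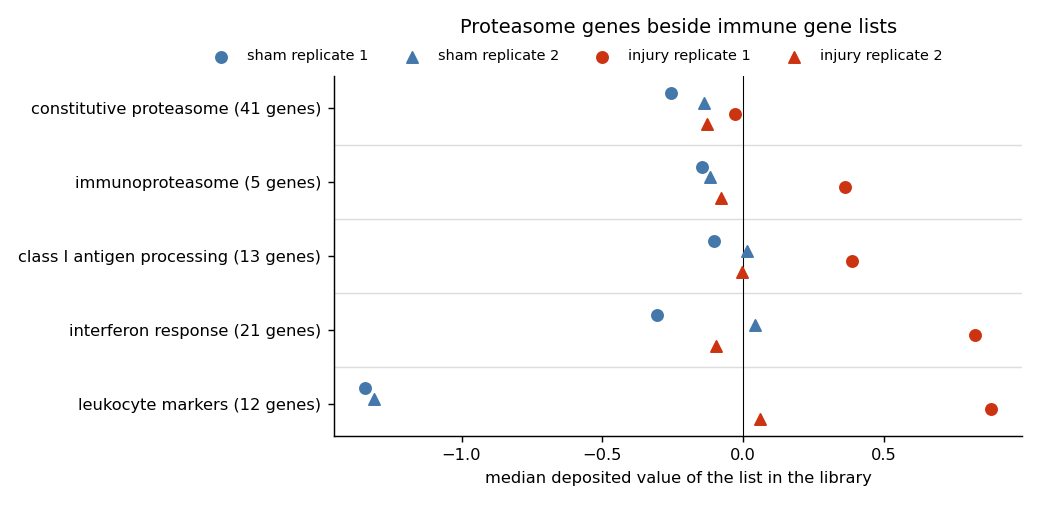
Median deposited value (horizontal axis) in each library of the 41 constitutive and 5 immunoproteasome genes and of 3 immune lists (rows). Blue marks are sham and red marks injury libraries, with circles for replicate 1 and triangles for replicate 2. Leukocyte markers lie above the sham libraries in both injury libraries, at 0.88 and 0.061, whereas the other immune lists and the immunoproteasome do so clearly only in injury replicate 1.

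MHC class I processing genes act after the proteasome. Of the 13 analysed, 10 had a higher mean after injury, none was called, and injury replicate 1 exceeded injury replicate 2 in all 13. In 8 of them (61.5%) both injury libraries lay above both sham libraries, against 31.6% of all genes, and in 1 both lay below. The median difference was 0.28. *Nlrc5*, a transactivator of class I genes, was at -0.12 and -0.084 after sham operation and at 0.73 and -0.026 after injury, a difference of 0.46 (limma adjusted p = 0.311). Before adjustment *Tap1* and, in the other direction, *Erap1* had a p-value under 0.05, as 29.5% of all genes did, the latter the gene of the aminopeptidase that trims peptides. *Erap1* was at 0.23 and 0.35 after sham operation and at -0.063 and -0.23 after injury (difference -0.44, adjusted p = 0.119 from limma).

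The 19S cap was split between its ATPases and its other subunits. The 6 ATPase genes had a median difference of 0.065, from -0.10 for *Psmc3* to 0.19 for *Psmc1*. In 5 of the 6 the groups overlapped, while 61.9% of all genes did not overlap. *Psmc1* alone lay without overlap, at -0.24 and -0.14 after sham operation and at -0.044 and 0.055 after injury (limma adjusted p = 0.404). The 11 non-ATPase genes had a median difference of 0.11, and in 6 of them the injury libraries lay above the sham libraries without overlap, against 31.6% of all genes. *Psmd8*, a lid subunit gene on chromosome 7 from 29959207 to 29965692, was at -0.26 and -0.22 after sham operation and at 0.14 and 0.12 after injury. The libraries of each group lay close together, and the difference was 0.37 with a standard error of 0.13 and a 95% interval from 0.037 to 0.69 (limma adjusted p = 0.140). Leaving out any 1 library gave 0.35 to 0.38. The lowest of these genes was *Psmd6*, another lid subunit, at -0.24 and -0.017 after sham operation and at -0.25 and -0.33 after injury. *Psmd14*, the deubiquitinase of the lid, was at -0.42 and -0.16 against -0.14 and -0.38, a difference of 0.034 with overlapping groups, and its symbol stands for 2 gene models in GENCODE.

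*Psme3* had the lowest p-value of the 48 genes. It encodes PA28 gamma, a nuclear activator of the core that is not part of the immunoproteasome, and lies on chromosome 11 from 101177527 to 101184851. *Psme3* was at -0.23 and -0.14 after sham operation and at 0.24 and 0.24 after injury. The injury libraries did not differ in their printed digits, unlike those of *Psme1* and *Psme2*. The difference was 0.43 with a standard error of 0.13 and a 95% interval from 0.094 to 0.76 (limma adjusted p = 0.108). Leaving out any 1 library gave 0.38 to 0.48. *Psme4*, the gene of the activator PA200, was at -0.36 and -0.19 after sham operation and at 0.079 and 0.029 after injury, a difference of 0.33 (limma adjusted p = 0.192). *Psmf1*, which encodes the proteasome inhibitor PI31, differed by -0.016 with overlapping groups.

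The 7 assembly chaperones had differences of both signs, 5 above and 2 below 0, with a median of 0.15. *Psmg3*, one of the chaperones of the alpha ring, lies on chromosome 5 from 140299548 to 140302797 and was at -0.37 and -0.26 after sham operation and at 0.25 and -0.047 after injury. Its difference was 0.42 with a standard error of 0.16 (limma adjusted p = 0.160), and 0.27 to 0.57 with any 1 library left out. *Psmg4*, which encodes its partner in the alpha ring chaperone complex, was at -0.41 and -0.39 after sham operation and at -0.31 and -0.52 after injury, a difference of -0.013. *Psmd5*, a chaperone of the ATPase ring, was at 0.054 and 0.11 after sham operation and at -0.093 and -0.18 after injury. This was the lowest difference of all members, -0.22 (limma adjusted p = 0.336). The other ATPase ring chaperones, *Psmd9* and *Psmd10*, had differences of 0.21 and 0.15. *Pomp*, which encodes the chaperone of beta ring assembly and falls outside the symbol rule, was at -0.37 and -0.20 after sham operation and at 0.19 and 0.033 after injury (difference 0.39, adjusted p = 0.151 from limma).

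Partners and regulators of the proteasome were counted from fixed lists. Of 8 proteasome partners, 7 had a higher mean after injury, all 7 without overlap (31.6% of all genes), and 1, *Ube3c*, lay lower without overlap (30.3% of all genes). The median difference of the 8 was 0.31. None was called, and 3 had a p-value under 0.05 before adjustment, *Uchl5*, *Pomp* and *Adrm1*, where 29.5% of all genes did. *Adrm1* encodes a ubiquitin receptor of the cap and *Uchl5* the deubiquitinase that it docks. *Adrm1* was at -0.18 and -0.18 after sham operation and at 0.21 and 0.10 after injury. Of 10 genes known to regulate proteasome genes, 5 had a higher mean and the median difference was 0.049. None was called, against 7.43% of all genes. Against 29.5% of all genes, 1 had a p-value under 0.05 before adjustment. This was *Bach1*, which encodes a repressor that competes with NRF2, at -0.57 and -0.25 after sham operation and at 0.63 and 0.16 after injury, a difference of 0.81 with a standard error of 0.22 (limma adjusted p = 0.0809). *Keap1*, whose product targets NRF2 for degradation, also lay higher without overlap, with a difference of 0.36 (limma adjusted p = 0.189). These 2 genes were 20% of the list, against 31.6% of all genes. *Stat3* lay lower without overlap (difference -0.13), as 30.3% of all genes did. *Nfe2l1* was at 0.24 and 0.22 after sham operation and at 0.094 and 0.30 after injury, with a difference of -0.036 (95% interval -0.40 to 0.32). *Ddi2*, the protease that activates NRF1, was at -0.12 and -0.095 against 0.36 and -0.31. *Nfe2l2*, the gene of NRF2, was at 0.031 and 0.031 against 0.17 and -0.34. In *Nfe2l1*, *Ddi2* and *Nfe2l2* the groups overlapped. Of 16 genes of ubiquitin supply and shuttling, 10 had a higher and 6 a lower mean, and none was called, against 7.43% of all genes. Before adjustment 5 had a p-value under 0.05, 4 higher and 1 lower, against 29.5% of all genes. In 7 both injury libraries lay above both sham libraries and in 5 below, against 31.6% and 30.3% of all genes.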

How the data were processed

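RNA-seq was made from 2 sham and 2 injury samples of the outer tissues around the FA. The authors removed adaptors with Cutadapt 1.18, trimmed reads with Trimmomatic 0.39, aligned them to mm9 with STAR 2.6.0a and counted reads per gene with featureCounts. The deposited values are a signed score for each gene and library, not counts, and how the authors made them from counts is not given in the sources used here. No filter or rescaling was applied. Groups were compared with limma 3.58.1 in R 4.3.3 (lmFit and eBayes, group as the only term, no trend) in place of the count test that the authors ran, and the test was tested on simulated data. The members, lists, motifs and named genes were chosen with earlier results of these data known. Named were the immunoproteasome genes, their partners, *Psme3*, any member called and, from the pathway lists, *Pomp*, *Nfe2l1*, *Nfe2l2*, *Ddi2*, *Nlrc5*, *Irf1* and *Tap1*. The rule names 1 further pathway gene, which is not reported here. Other members could be named as the highest, lowest or median of their role. Library values of other genes are given for genes chosen after their values were seen. Intervals are 95% intervals from limma. No member had values identical to those of another gene. The fit was repeated with a replicate block, without each library, after quantile normalization, with a robust variance prior, at a threshold of 0.1 and with the beta ring genes as the constitutive set. Tables were handled with pandas 2.3.3 in Python 3.11.15.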

Additional observations from a re-analysis of the deposited data

How the results depend on the processing

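No member was called with the replicate block (1 had an unadjusted p-value under 0.05), after quantile normalization, with a robust variance prior or at an adjusted p-value under 0.1, and 1 was called when libraries were left out in turn (0 to 1, *Psmb9* without injury replicate 2). Over all genes 941 were called, 684 with the replicate block, 1061 after quantile normalization, 861 with the robust prior and 2317 at a threshold of 0.1. With each library left out the count was 0 to 1790, being 0 without sham replicate 1, 1 without sham replicate 2, 284 without injury replicate 1 and 1790 without injury replicate 2. With each library left out the median difference of the immunoproteasome was 0.080 to 0.54, that of the constitutive genes 0.042 to 0.19 and the gap between these median differences 0.014 to 0.39. Of 29 genes followed through the alternatives, 6 changed sign, each only when a library was left out. These were *Psme1* (-0.032 to 0.27), *Psmc3* (-0.22 to 0.021), *Psmd14* (-0.096 to 0.16), *Psmg4* (-0.12 to 0.093), *Psmf1* (-0.058 to 0.025) and *Psme2b* (-0.23 to 0.18), and the cause was not tested. *Psmb9* (0.096 to 0.80) and *Tap1* (0.33 to 0.96) were called without injury replicate 2 alone. The replicate numbers are not stated to pair the samples, and the deviations of same-numbered libraries had a correlation of -0.094. The block changed no call among the members. Depth is unknown, so no detection limit is given. The 95% interval of a member, before adjustment, had a median half-width of 0.36 units, and members with larger differences were not called either.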

Other observations

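Ubiquitin genes are described here because they supply the substrate tag of the proteasome. *Ubb*, a polyubiquitin gene, was at 0.064 and 0.076 after sham operation and at -0.25 and -0.27 after injury, a difference of -0.33 (limma adjusted p = 0.166). The groups did not overlap. *Uba1*, the main ubiquitin-activating enzyme, was at 0.19 and 0.15 against -0.090 and -0.14 (limma adjusted p = 0.218). The shuttle factor genes *Ubqln1* and *Ubqln4* had differences of 0.44 and 0.38, and adjusted p-values of 0.0970 and 0.143 by limma, and *Ubqln1* had the lowest p-value of the 16 genes of this list. None of these genes was called at 0.05, and they were chosen after their values were seen.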
